A study of Homo sapiens with 9 samples.

Results

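The rows described here are the transcript clusters of an expression array whose platform annotation gives 2 or more gene symbols and whose mean log2 signal over the 9 arrays of the series lay at or above the median of all row means, 4.25. They are 1174 of the 67528 rows of the deposited table. Several symbols were given for 1543 rows at any level, and 369 of these fell below the level and are not members. At the same level the table holds 16863 rows with 1 symbol and 15727 rows with none. The members were chosen by their mean signal over all arrays and not by differences between groups, so the differences are tested below. The members just inside the level were FAM106A/FAM106B at 4.254, KRTAP9-4/KRTAP9-9 at 4.2555 and LOC100133920/LOC286297 at 4.2559, and the rows just outside it were MROH8 at 4.2439, KIR2DL5B/KIR2DL5A at 4.2423 and SLC35G3/SLC35G5 at 4.2389. A row is named here by its whole list of genes, joined by slashes, after old symbols were brought up to date, and no gene is singled out of a row.

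The samples are A549 cells, an established human line from a lung adenocarcinoma, collected 72 h after siRNA transfection. There are 3 groups of 3 arrays: si-FAM210B, si-UQCRC2 and si-negative control, called control below, and per the design text each siRNA was a mixture. FAM210B lies in mitochondrial membranes, and UQCRC2 belongs to the core of complex III of the respiratory chain. The arrays are labelled as biological replicates, and no label tells whether each came from its own culture, so every p-value below rests on the spread among arrays, which may be technical. One cell line was studied at a single time.

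A transcript cluster on this kind of array is a set of probes assigned to 1 stretch of transcribed genome, and the annotation lists every gene record that the stretch or its probes match. Genes copied by duplication keep near-identical exons, so probes designed for 1 copy can bind the RNA of the others. Many small nucleolar RNAs (snoRNAs, which guide chemical modification of ribosomal RNA) and many microRNAs (miRNAs, which guide repression of messenger RNAs) are cut out of introns or exons of a longer host transcript, and probes spread over the host then carry both names. Neighbouring genes can also be read through into 1 joint transcript, and old gene names can survive beside the current one.

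These relations divided the members. Each row went to the first class that held, in the order 1 gene, small RNA, readthrough, paralogs, overlapping and neighbours. In 285 rows more than 1 relation held, so a row of 1 class can also hold another relation. Paralogs, told by a shared name stem, made up 399 rows. A small RNA was named in 309 rows. In 193 rows the symbols updated to 1 gene, so the row is not ambiguous with current names. Overlapping genes made up 89 rows, neighbours within 50 kb 80 rows and readthrough transcripts 72 rows, and 32 rows had none of these relations. Of the 309 small RNA rows, a longer gene of the row spanned the small RNA in 130 rows with a miRNA, 70 with a snoRNA and 5 with another small RNA, 60 rows named no longer gene, and in 44 the longer gene of the row did not span it. After the update 981 rows named 2 or more genes. The lists were short in most cases, with 1034 rows giving 2 or 3 symbols and the longest giving 16.

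Rows repeat each other. The 1174 rows name 887 sets of genes, 404 rows share their set with another row, and 123 rows carry 9 values equal to those of another member, which leaves 1088 distinct profiles. In 128 rows the identifier is that of an alternative haplotype of chromosome 6, where the HLA region is held in several versions. Repeated rows are therefore not replicates. Whether rows of 1 set share probes was not read from the files.

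A measure that the name stems did not use was the sequence before the genes. In RefSeq (assembly GRCh38.p14) a promoter window of 300 bases, mostly before the start of the gene, was held for both genes of 318 pairs named by paralog rows. The median identity of these windows was 51.9% (30.2% to 100%), and 99 pairs, 31.1%, reached 80%. Among 50 pairs of neighbours none reached 80%, and the highest, CXorf49 with CXorf49B, was at 67.1%. Open reading frame names did not count as a shared stem, and zinc finger names counted only with the same number. Names without a digit that differ in their last letter, as TNXA and TNXB, did not match either. The neighbours can therefore hold copies too, as CXorf49 with CXorf49B and the TNXA/TNXB rows do by name. Among 54 pairs in overlapping rows 16 reached 80% (29.6%), and among 28 pairs in readthrough rows 3 did (10.7%), FMC1 with LUC7L2, SLX1A with SLX1B and SULT1A3 with SULT1A4, each at 100%. Every pair within a paralog row was counted, with or without a shared stem, as for TRAPPC2B with ZNF547 at 100%. Identity of the windows also does not tell copies from genes that share a start. Among pairs with a shared stem, XAGE1A and XAGE1B were identical over the window and ZNG1C and ZNG1E reached 99.3%. GOLGA8J and GOLGA8K reached 99.7% and HSPA1A and HSPA1B 92.0%. The 66 pairs of H4C genes had a median of 48.8%, and the 31 pairs of H3C genes ranged from 46.9% to 97.4%.

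**Figure D1:**
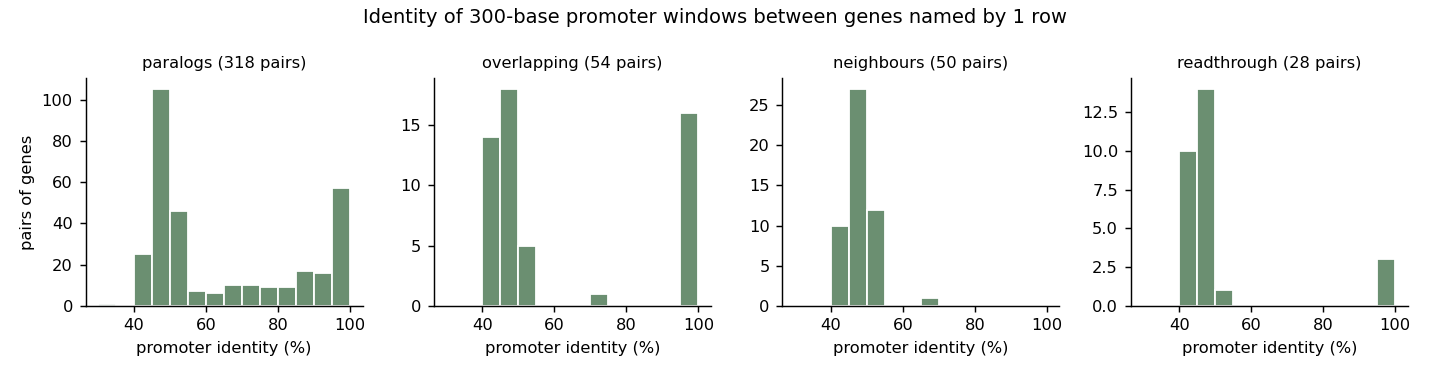
Identity in percent of 300-base promoter windows between genes named by 1 row, with pairs of genes counted in bins of 5 percentage points, for paralog, overlapping, neighbour and readthrough rows. The 318 pairs of paralog rows fall into a large group near 50% and a smaller group of 99 pairs at 80% or more. No neighbour pair exceeds the 67.1% of CXorf49 with CXorf49B, which are copies by name.

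The HSPA1A and HSPA1B windows are printed because their rows gave the most repeated difference of all members. Capitals mark the 2-unit heat shock element, searched as the letters GAANNTTC (N is any base; the letters read the same on both strands), which is held by 6.77% of 35116 RefSeq promoter windows.
HSPA1A, chr6:31815293-31815592, plus strand: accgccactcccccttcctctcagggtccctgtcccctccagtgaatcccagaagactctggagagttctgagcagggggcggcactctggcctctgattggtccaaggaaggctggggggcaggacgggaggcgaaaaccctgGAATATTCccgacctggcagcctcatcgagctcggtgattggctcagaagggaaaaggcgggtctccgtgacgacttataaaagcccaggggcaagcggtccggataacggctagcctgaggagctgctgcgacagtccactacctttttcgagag
HSPA1B, chr6:31827488-31827787, plus strand: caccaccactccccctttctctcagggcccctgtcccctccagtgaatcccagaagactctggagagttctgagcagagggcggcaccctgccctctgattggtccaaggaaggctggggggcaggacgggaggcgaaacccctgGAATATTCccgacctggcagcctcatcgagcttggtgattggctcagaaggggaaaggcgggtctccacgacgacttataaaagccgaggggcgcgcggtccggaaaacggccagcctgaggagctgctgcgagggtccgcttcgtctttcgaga
Each window held 1 such match, starting at -106 from the start of HSPA1A and at -105 from that of HSPA1B. The heat shock element of 3 units, searched on both strands, was in neither window and in 0.49% of all windows. Each window also held the letters CCAAT or ATTGG at 2 places (34.6% of all windows hold them) and TATAAA or TTTATA at 1 place (11.5%). A match describes the letters only.

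The mature miRNAs are printed for the miRNA rows that differed from control, other than MIR548AA1/PALMD and MIR636/SRSF2, and for hsa-miR-3134, which RefSeq places on another chromosome than the longer gene of its row. Capitals mark the seed, bases 2 to 8, and coordinates are those of RefSeq on GRCh38.p14.
hsa-miR-4709-5p (row MIR4709/NPC2), chr14:74480175-74480196, minus strand: aCAACAGUgacuugcucuccaa
hsa-miR-4709-3p (row MIR4709/NPC2), chr14:74480135-74480157, minus strand: uUGAAGAGgaggugcucuguagc
hsa-miR-198 (row FSTL1/MIR198), chr3:120395703-120395724, minus strand: gGUCCAGAggggagauagguuc
hsa-miR-3714 (row MIR3714/PLCL2), chr3:16933196-16933217, plus strand: gAAGGCAGcagugcuccccugu
hsa-miR-614 (row GPRC5A/MIR614), chr12:12915882-12915904, plus strand: gAACGCCUguucuugccaggugg
hsa-miR-3614-5p (row MIR3614/TRIM25), chr17:56891319-56891341, minus strand: cCACUUGGaucugaaggcugccc
hsa-miR-3614-3p (row MIR3614/TRIM25), chr17:56891281-56891303, minus strand: uAGCCUUCagaucuugguguuuu
hsa-miR-424-5p (row MIR424/MIR503HG), chrX:134546680-134546701, minus strand: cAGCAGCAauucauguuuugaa
hsa-miR-424-3p (row MIR424/MIR503HG), chrX:134546644-134546664, minus strand: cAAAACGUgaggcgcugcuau
hsa-miR-3134 (row MIR3134/PTBP3), chr3:15697305-15697327, minus strand: uGAUGGAUaaaagacuacauauu
No seed was shared among them. The seed of hsa-miR-424-5p, AGCAGCA, was held by 8 mature miRNAs of the RefSeq table, and each of the other seeds by 1. The array measured the whole row, so a value of a host row is not a level of the mature miRNA.

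The targeted genes have rows with a single symbol. UQCRC2 lay at 9.96, 9.84 and 9.70 on the control arrays and at 8.34, 8.37 and 8.37 on the si-UQCRC2 arrays, with 9.25, 9.83 and 9.82 on the si-FAM210B arrays. FAM210B lay at 6.39, 6.46 and 6.48 on the control arrays and at 6.48, 6.10 and 6.22 on the arrays labelled si-FAM210B, so replicate 1 of that label was not lowered. The first principal component of the tested rows (48.9% of the variance) placed si-FAM210B replicate 1 at -52.1, and replicates 2 and 3 at 1.1 and -9.9. It placed control replicate 3 at -13.2, against 15.9 and 17.4 for the other controls, and the si-UQCRC2 arrays at 12.9 to 14.3. The deviations of si-FAM210B replicate 1 and control replicate 3 from their group means correlated across rows (r = 0.599, genes not being independent). Counts without both arrays are given below, with the only rows that lost their call when both were left out. The epithelial keratin rows KRT7, KRT8 and KRT18 were above the level, CDH1 and EPCAM too, while PTPRC of leukocytes, PECAM1 of endothelium and LUM of fibroblasts were below it. COL1A1, also a fibroblast gene, was above the level, and the lung lineage genes NKX2-1, SFTPB and SFTPC lay between 5.08 and 5.85. In bulk RNA of this kind, fewer cells of a type and less RNA per cell cannot be told apart.

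A row is called when limma's adjusted p for a difference of group means, corrected over all 33764 rows at or above the level, was under 0.05. Differences are in log2 units, and values are log2 signals. In si-FAM210B against control, 32 of the 1174 rows were called, 13 higher and 19 lower, or 2.73%, against 2.56% of all rows tested (1.11% higher and 1.45% lower). In si-UQCRC2 against control, 22 rows were called, 12 higher and 10 lower, or 1.87%, against 1.72% of all rows (1.25% higher and 0.471% lower). In si-FAM210B against si-UQCRC2, which is also the test of the difference between both effects, 51 rows were called, 16 higher and 35 lower, or 4.34%, against 4.49% (1.47% higher and 3.02% lower). The shares lay near those of all rows, and the median differences of the members, 0.03, -0.02 and 0.04 in this order, lay near the medians of all rows, 0.04, -0.02 and 0.06. Called rows stood for 21, 20 and 39 sets of genes. Cyclic loess between arrays turned the split of si-FAM210B against control to 23 higher and 21 lower. Both comparisons with control share the control arrays.

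**Figure D2:**
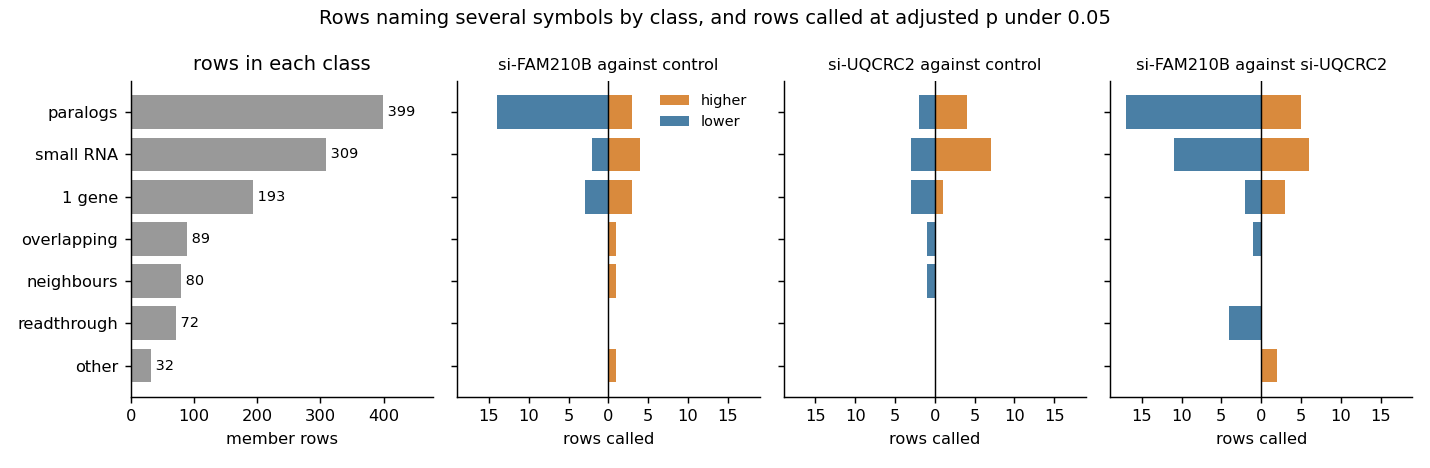
Member rows in each class (left, number of rows) and rows called at an adjusted p under 0.05 in each comparison, with higher rows to the right and lower rows to the left of 0. Paralogs gave 14 of the 19 lower rows of si-FAM210B against control, 6 of them HSPA1A/HSPA1B rows and 4 of them rows of 1 H4C set. Small RNA rows gave 7 of the 12 higher rows of si-UQCRC2 against control. MIR548AA1/PALMD, a member only through the si-UQCRC2 arrays, is among them.

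The calls depended on single arrays. Without both deviating arrays, si-FAM210B replicate 1 and control replicate 3, the counts rose to 138, 81 and 142 rows, and 9.6%, 6.74% and 11.2% of all rows were called. Of the rows called on all arrays, both SNORA59A/SNORA59B rows lost their call in si-FAM210B against control (-0.30, adjusted p = 0.0556), and the rest stayed called. Both arrays were picked for their deviation in these same data. Leaving them out can narrow the spread within groups by construction, so calls that stayed are no check of those calls. Of the 32 rows called in si-FAM210B against control, 11 stayed called without each of the 9 arrays in turn, of the 22 in si-UQCRC2 against control 7, and of the 51 in the third comparison 10. The fewest rows were called without control replicate 1 or 2 in the first comparison (12 rows), without any 1 si-UQCRC2 array in the second (7 rows) and without si-UQCRC2 replicate 1 in the third (10 rows). The most were called without si-FAM210B replicate 2 in the first (39) and the third (70) and without si-FAM210B replicate 1 in the second (55). With 3 against 3 arrays the exact two-sided permutation test cannot go below p = 0.1, the value reached by every row named below as called.

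Among paralog rows, 17 of 399 were called in si-FAM210B against control (3 higher, 14 lower), 6 in si-UQCRC2 against control (4 higher, 2 lower) and 22 in the third comparison (5 higher, 17 lower). These are 4.26%, 1.5% and 5.51% of the class, against 2.56%, 1.72% and 4.49% of all rows. The median differences of the class were 0.05, -0.02 and 0.07. Repeated rows weigh in the first share. Of the 14 lower rows, 6 name HSPA1A/HSPA1B and 4 list the same H4C genes, and all 3 higher rows name ANXA8/ANXA8L1.

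HSPA1A and HSPA1B encode the stress-inducible HSP70 chaperones, which refold damaged proteins, and 6 rows name both. All 6 were lower on the arrays labelled si-FAM210B than in control. Row 6 lay at 8.72, 8.75 and 8.62 on the control arrays, 8.09, 8.10 and 8.01 on the si-FAM210B arrays, and 8.65, 8.62 and 8.60 on the si-UQCRC2 arrays. Every si-FAM210B array lay below every control and si-UQCRC2 array. Row 1, of the main chromosome 6, lay at 9.46, 9.51 and 9.66 on the control arrays, 9.12, 9.03 and 8.99 on the si-FAM210B arrays, and 9.39, 9.39 and 9.36 on the si-UQCRC2 arrays, again without overlap between si-FAM210B and the rest. The differences from control ranged from -0.63 to -0.50 over the 6 rows, and that of row 6 was -0.63 ± 0.06 (SE, adjusted p = 0.00146). In si-UQCRC2 against control the 6 differences ranged from -0.16 to -0.07 with adjusted p of 0.433 to 0.87. The difference between both effects was called in all 6 rows, from -0.56 to -0.33 with adjusted p of 0.00193 to 0.0308. Rows 2 to 6 stayed called against control under every alternative run, and row 1 lost its call only in the fit of 2 groups, while against si-UQCRC2 rows 3 to 6 kept theirs throughout, row 2 lost its call without any 1 si-UQCRC2 array and row 1 without any 1 of 5 arrays. Rows 3 to 6 carry identifiers of alternative chromosome 6 haplotypes. The 4 rows that name HSPA1A alone, also of alternative haplotypes, fell against control, by 0.45 to 0.47 on the log2 scale (adjusted p = 0.0167 to 0.0221), and their differences from si-UQCRC2, -0.29 to -0.28, were not called (adjusted p = 0.0697 to 0.0879). Of the 8 other member rows with heat shock or DNAJ symbols, which include HSPA8/SNORD14C/SNORD14D and HSP90B1/MIR3652, none was called in any comparison.

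Histone genes that are expressed with DNA replication lie in clusters on chromosomes 1 and 6, and their near-identical coding sequences put many of them into 1 row. Histone symbols were in 39 rows, of which 5 were lower in si-FAM210B against control (12.8%), 2 lower in si-UQCRC2 against control (5.13%) and none higher in either. Over all rows 1.45% and 0.471% were lower. The 39 rows were picked by symbol, without regard to DNA replication, and several repeat a set of genes. The histone median was -0.23 and -0.22 against 0.04 and -0.02 over all rows. Histone H4, which pairs with H3 in the nucleosome core, had 12 rows that each list the same 14 H4C genes, and 4 of them fell against control. The row numbered 2, where H4C15 is listed first, lay at 7.86, 7.98 and 7.68 on the control arrays, 6.87, 7.23 and 6.94 on the si-FAM210B arrays, and 7.84, 7.72 and 7.72 on the si-UQCRC2 arrays. The si-FAM210B arrays lay below all others, and the si-UQCRC2 arrays overlapped the control arrays. Its difference was -0.82 ± 0.11 (SE, adjusted p = 0.00521) from control and -0.74 ± 0.11 (SE, adjusted p = 0.00658) from si-UQCRC2, and both calls held under every alternative run on single rows. Row 1, also with H4C15 first, fell by 0.75 and row 7, with H4C2 first, fell by 0.80 (adjusted p = 0.00659 and 0.0032). The fourth, row 11 with H4C13 first, gave -0.72 ± 0.13 (SE, adjusted p = 0.0191), a call that was lost without control replicate 1 or 2. The other 8 rows of the same 14 genes had differences from -0.70 to 0.09, and the largest of these, row 8 with H4C4 first, had an adjusted p of 0.0733. In si-UQCRC2 against control none of the 12 was called, with differences from -0.53 to 0.005 and the lowest adjusted p, 0.0514, in row 7. With the 12 rows averaged to 1 value, the set of 14 genes was not called in either, at -0.41 from control (adjusted p = 0.0783) and -0.16 from si-UQCRC2 (adjusted p = 0.333). The row that names H4C3 alone was at -0.30 (adjusted p = 0.196).

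Of 12 rows with H3C genes, 1 fell in each comparison with control and all 12 differences were below 0 in both. Row 9 of the set with H3C10 listed first was at -0.59 ± 0.13 (SE, adjusted p = 0.0451) in si-FAM210B against control, and row 8 with H3C12 first at -0.55 ± 0.09 (SE, adjusted p = 0.0207) in si-UQCRC2 against control. Row 8 lay at 9.64, 9.39 and 9.58 on the control arrays, 9.21, 9.23 and 9.17 on the si-FAM210B arrays, and 9.04, 9.11 and 8.81 on the si-UQCRC2 arrays. The 9 rows of this set averaged to 1 value were not called, at -0.33 and -0.31 in the 2 comparisons with control (adjusted p = 0.0574 and 0.0922). In row 8 all si-UQCRC2 values were below all control values, and the difference between both effects, 0.22, was not called (adjusted p = 0.2). Of 3 H2B rows, 1 was called, a row of H2BC10/H2BC4/H2BC6/H2BC7/H2BC8 at -0.42 ± 0.08 (SE, adjusted p = 0.0422) in si-UQCRC2 against control, and the mean of its 2 rows, at -0.23, was not called (adjusted p = 0.25). The row naming H2BC10 alone fell in si-FAM210B against control, by 0.71 (adjusted p = 0.0116), where the row of 5 genes was at -0.23 (adjusted p = 0.176). None of 10 H2A rows was called, with differences from -0.63 to 0.08 in si-FAM210B and from -0.49 to -0.09 in si-UQCRC2 against control. The only H2A rows above 0 in si-FAM210B were the 3 of H2AB1/H2AB2/H2AB3, at 0.05 to 0.08. These H3 and H2B calls were each lost without any 1 of 5 to 7 of the 9 arrays.

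ANXA8 and ANXA8L1 are annexins, proteins that bind membrane phospholipids with calcium, and 3 rows that name only this pair were higher in both comparisons with control. Row 3 lay at 7.84, 7.89 and 7.88 on the control arrays, 8.25, 8.49 and 8.52 on the si-FAM210B arrays, and 8.75, 8.68 and 8.61 on the si-UQCRC2 arrays. The 3 groups did not overlap, with control lowest and si-UQCRC2 highest. Its difference was 0.55 ± 0.08 (SE, adjusted p = 0.0102) for si-FAM210B and 0.80 ± 0.08 (SE, adjusted p = 0.00158) for si-UQCRC2. Rows 1 and 2 rose by 0.45 and 0.49 in si-FAM210B and by 0.67 and 0.69 in si-UQCRC2. The difference between both effects, from -0.26 to -0.20 in these rows, was not called (adjusted p = 0.112 to 0.149). The si-UQCRC2 calls held under every alternative run, while those of si-FAM210B were lost without control replicate 1 or 2, and for row 1 without si-FAM210B replicate 3 as well. The row that adds LINC00842 to the list was not called in any comparison, at 0.10 and -0.14 against control.

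**Figure D3:**
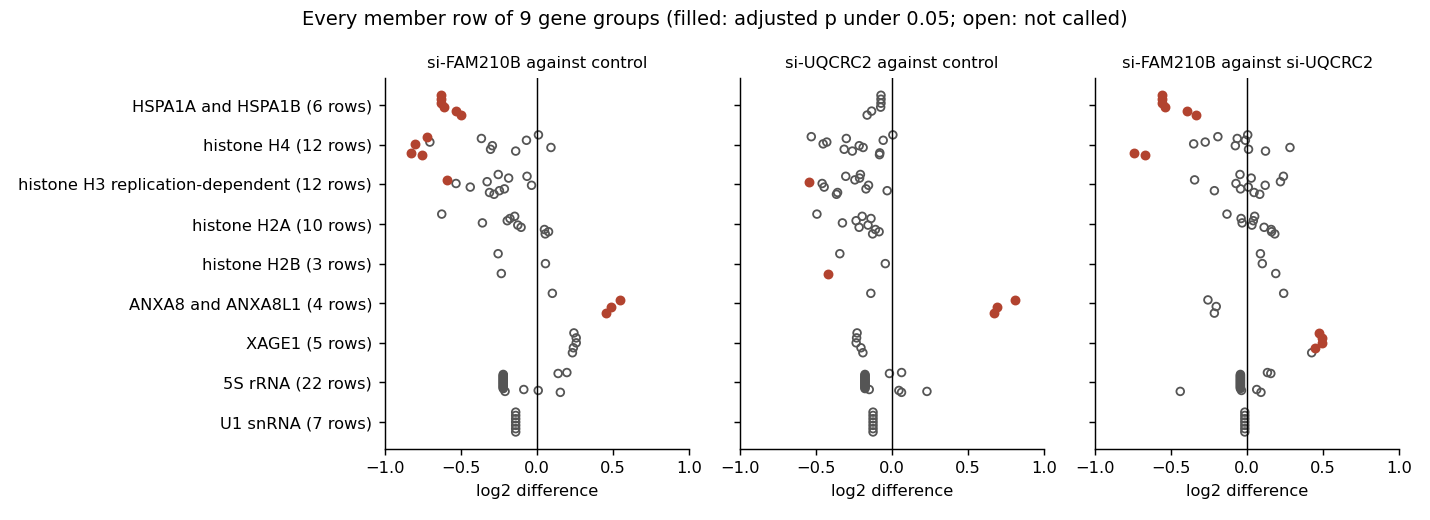
Log2 difference (x axis) of every member row of 9 gene groups in the 3 comparisons, where each point is 1 row, filled points were called at an adjusted p under 0.05 and open points were not. The 6 HSPA1 rows lie together from -0.63 to -0.50 in si-FAM210B against control, the 12 H4 rows spread from -0.82 to 0.09, and 3 of 4 ANXA8 rows lie to the right in both comparisons with control. Of the 22 rows labelled 5S rRNA, 16 list the 5S genes and hold 1 profile, and the rest list 5S pseudogenes.

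FAM72 genes are recent copies spread over chromosome 1, and both member rows called were lower on the arrays labelled si-FAM210B. These rows, and the CNTNAP3, CKMT1, GPR89, ZNG1, FAM182B and RNF5 rows below, were chosen after their values were seen. FAM72B/FAM72C lay at 7.70, 7.57 and 7.49 on the control arrays, 6.85, 7.21 and 7.10 on the si-FAM210B arrays, and 7.48, 7.48 and 7.49 on the si-UQCRC2 arrays, with every si-FAM210B array below every other array, and its difference from control was -0.53 ± 0.10 (SE, adjusted p = 0.0229). FAM72A/FAM72B/FAM72C differed from control by -0.41 ± 0.07 (SE, adjusted p = 0.0142). The row naming FAM72C alone fell by 0.54 (adjusted p = 0.0244). Against control, the call of the longer set was lost without si-FAM210B replicate 3 or control replicate 1 or 2, and that of the pair without any 1 of 6 arrays.

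CNTNAP3/CNTNAP3B, of the contactin-associated cell surface proteins, lay at 7.17, 7.29 and 7.14 on the control arrays, 6.64, 6.74 and 6.73 on the si-FAM210B arrays, and 7.17, 7.17 and 7.25 on the si-UQCRC2 arrays. The si-FAM210B arrays were lowest, and control and si-UQCRC2 overlapped. Its differences were -0.50 ± 0.07 (SE, adjusted p = 0.00618) from control and -0.49 ± 0.07 (SE, adjusted p = 0.00542) from si-UQCRC2, and both held without each array in turn. CNTNAP3 alone fell by 0.41 and 0.39 (adjusted p = 0.0103 and 0.0101).

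CKMT1A and CKMT1B encode the ubiquitous mitochondrial creatine kinase, which makes phosphocreatine from mitochondrial ATP, and their windows were 84.6% identical. Neither of the 2 rows was called against control. Row 2 lay at 6.09, 6.17 and 6.05 on the control arrays, 5.92, 5.76 and 5.86 on the si-FAM210B arrays, and 6.35, 6.32 and 6.32 on the si-UQCRC2 arrays, with si-FAM210B lowest, control between and si-UQCRC2 highest, without overlap. The difference between both effects was -0.48 ± 0.06 (SE, adjusted p = 0.00529) in row 2, held under every alternative run, and -0.34 ± 0.07 (SE, adjusted p = 0.025) in row 1, lost without any 1 of 5 arrays.

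XAGE1A/XAGE1B, cancer-testis antigens of the X chromosome whose RNA is absent from most adult tissues, had 5 rows between 0.23 and 0.26 in si-FAM210B and between -0.24 and -0.19 in si-UQCRC2 against control, none called. Row 3 lay at 8.39, 8.50 and 8.71 on the control arrays, 8.97, 8.67 and 8.73 on the si-FAM210B arrays, and 8.29, 8.34 and 8.27 on the si-UQCRC2 arrays, where si-FAM210B overlapped control in 1 array and si-UQCRC2 lay below both groups. In si-FAM210B against si-UQCRC2, 4 of the 5 were higher, by 0.44 to 0.49 (adjusted p = 0.0285 to 0.0473), and the fifth was at 0.42 (adjusted p = 0.0552). Each call was lost without any 1 of 5 to 7 arrays.

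Other paralog rows differed in 1 comparison. GOLGA8J/GOLGA8K, golgin genes of duplicated chromosome 15 segments, was at 0.38 ± 0.07 (SE, adjusted p = 0.0335) in si-UQCRC2 against control. In si-FAM210B against si-UQCRC2, GPR89A/GPR89B, Golgi pH regulator copies, was at -0.45 ± 0.10 (SE, adjusted p = 0.0348) in 1 of its 2 rows, and the row naming GPR89B alone at -0.47 (adjusted p = 0.0249). The set of 6 USP17L deubiquitinase genes was at 0.34 ± 0.07 (SE, adjusted p = 0.0338). Lower rows there were 1 of 2 ZNG1C/ZNG1E/ZNG1F rows at -0.33, 1 of 2 FAM182B/FAM27B/FAM27C rows at -0.33 and 1 of 7 RNF5/RNF5P1 rows at -0.26 (adjusted p = 0.0307, 0.0393 and 0.0396), and the other ZNG1 row, at -0.39, was not called (adjusted p = 0.0561). Of the 2 rows of ZNG1F alone, 1 was called, at -0.33 (adjusted p = 0.0432), and the other was at -0.38 (adjusted p = 0.0648). The rows of FAM27B and FAM27C alone, from -0.06 to 0.01, and that of RNF5P1 alone, at -0.12 (adjusted p = 0.593), were not called. Averaged to 1 value per set, the ZNG1 and GPR89 sets were called (adjusted p = 0.0419 and 0.0488) and the FAM182B and RNF5 sets were not (adjusted p = 0.322 and 0.0562). Each call of a row with several symbols in this paragraph was lost without any 1 of 5 or more arrays.

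Several families gave no call. No metallothionein, aldo-keto reductase, amylase or protocadherin row with several symbols was a member. None of the 16 zinc finger rows, 6 HLA rows, 6 cytochrome P450 rows, 4 tubulin rows, 2 keratin rows or 2 glutathione transferase rows was called. Over all rows 2.56%, 1.72% and 4.49% were called in the 3 comparisons, so families this small tell little by having no call. Of 58 rows of segmental duplication families, 1 was called in si-UQCRC2 against control and 1 in the third comparison (1.72% each). UQCRH/UQCRHL, which names a hinge subunit of the complex that holds UQCRC2 and its copy, was at -0.17 ± 0.07 (SE, adjusted p = 0.438) in si-UQCRC2 against control, with values of 6.42, 6.37 and 6.47 on the si-UQCRC2 arrays and 6.56, 6.57 and 6.65 on the control arrays.

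Among the 309 small RNA rows, 6 were called in si-FAM210B against control (4 higher, 2 lower, 1.94%), 10 in si-UQCRC2 against control (7 higher, 3 lower, 3.24%) and 17 in the third comparison (6 higher, 11 lower, 5.5%). The 10 and the 17 include MIR548AA1/PALMD, a member only through its si-UQCRC2 arrays. The 130 rows in which a longer gene spans a miRNA gave 3, 5 and 8 calls (2.31%, 3.85% and 6.15%), and the 70 in which one spans a snoRNA gave 0, 3 and 2 (0%, 4.29% and 2.86%). Over all rows the shares were 2.56%, 1.72% and 4.49%.

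NPC2 encodes the soluble cholesterol transfer protein of lysosomes, and its row MIR4709/NPC2 was higher in both comparisons with control. It lay at 8.53, 8.40 and 8.61 on the control arrays, 8.98, 8.84 and 8.96 on the si-FAM210B arrays, and 9.29, 9.19 and 9.25 on the si-UQCRC2 arrays. The groups did not overlap, with control lowest and si-UQCRC2 highest. The differences were 0.41 ± 0.07 (SE, adjusted p = 0.0226) for si-FAM210B and 0.73 ± 0.07 (SE, adjusted p = 0.00156) for si-UQCRC2, and the effects themselves differed by -0.32 ± 0.07 (SE, adjusted p = 0.0446). The si-UQCRC2 call held under every alternative run, the si-FAM210B call was lost without any 1 of 6 arrays, and the call of their difference without any 1 of 7.

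FSTL1 encodes a secreted follistatin-like glycoprotein, and its row FSTL1/MIR198 was higher in si-UQCRC2. It lay at 8.11, 8.02 and 7.93 on the control arrays, 8.10, 8.32 and 8.38 on the si-FAM210B arrays, and 8.64, 8.66 and 8.69 on the si-UQCRC2 arrays, with all si-UQCRC2 arrays above the rest, while si-FAM210B replicate 1 lay within the control range. The difference from control was 0.65 ± 0.08 (SE, adjusted p = 0.005), held under every alternative run, against 0.25 ± 0.08 (SE, adjusted p = 0.148) for si-FAM210B. The effects differed by -0.40 ± 0.08 (SE, adjusted p = 0.0308), a call lost without control replicate 2 or any 1 si-UQCRC2 array. GPRC5A, an orphan receptor induced by retinoic acid, was named in GPRC5A/MIR614, which lay at 10.06, 10.10 and 10.09 on the control arrays, 9.90, 9.98 and 10.06 on the si-FAM210B arrays, and 10.42, 10.42 and 10.41 on the si-UQCRC2 arrays. The si-UQCRC2 arrays were highest, and the si-FAM210B arrays lay below the control arrays, the nearest at 10.059 against 10.063. The si-UQCRC2 arrays were at 0.34 ± 0.06 (SE, adjusted p = 0.0269) from control, a call lost without any 1 control or si-UQCRC2 array, and si-FAM210B was not called against control, at -0.10 ± 0.06 (SE, adjusted p = 0.355) and, with cyclic loess, 0.0145. The difference of si-FAM210B from si-UQCRC2 was -0.44 ± 0.06 (SE, adjusted p = 0.00587), a call that held under every alternative run.

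MIR548AA1/PALMD was at 0.72 ± 0.08 (SE, adjusted p = 0.00218) in si-UQCRC2 against control. Its values were 4.02, 4.07 and 3.92 on the control arrays, 4.08, 4.13 and 4.15 on the si-FAM210B arrays, and 4.58, 4.84 and 4.75 on the si-UQCRC2 arrays. Its control and si-FAM210B means both lay below the level of 4.25, so it is a member only through the si-UQCRC2 arrays and had to differ. It is 1 of 3 members with only 1 group mean at or above the level, and the other two were not called. RefSeq places the miRNA on another chromosome than PALMD.

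MIR3714/PLCL2, with the phospholipase C-like protein PLCL2, was higher in both, at 0.39 ± 0.06 (SE, adjusted p = 0.0139) and 0.33 ± 0.06 (SE, adjusted p = 0.033). Its values were 4.57, 4.66 and 4.57 on the control arrays, 4.93, 4.99 and 5.04 on the si-FAM210B arrays, and 4.97, 4.92 and 4.89 on the si-UQCRC2 arrays, and both targeting siRNA groups lay above control and overlapped each other. TRIM25 is a ubiquitin ligase of the RIG-I antiviral pathway, and MIR3614/TRIM25 rose in si-FAM210B, at 0.25 ± 0.05 (SE, adjusted p = 0.0496), with 0.24 in si-UQCRC2 (adjusted p = 0.0699). MIR424/MIR503HG, a long noncoding RNA and a miRNA beside it, was at 0.31 ± 0.06 (SE, adjusted p = 0.0306) in si-FAM210B and 0.20 in si-UQCRC2 (adjusted p = 0.19). The si-FAM210B calls of these 3 rows were lost without si-FAM210B replicate 3 or control replicate 1 for MIR3714/PLCL2 and without any 1 of 8 arrays for both others, and the si-UQCRC2 call of MIR3714/PLCL2 without any 1 of 7.

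Lower miRNA rows were called mainly in si-FAM210B against si-UQCRC2, where 11 of 177 miRNA rows were called (6.21%) and 8 of the 11 fell. Over all rows 4.49% were called there, 3.02% lower and 1.47% higher, so most calls over all rows were lower too. The 8 lower miRNA rows include MIR548AA1/PALMD, a member only through its si-UQCRC2 arrays. PTBP3 binds RNA and regulates splicing, and MIR3134/PTBP3 lay at 9.38, 9.26 and 9.20 on the control arrays, 8.85, 9.04 and 9.10 on the si-FAM210B arrays, and 9.59, 9.56 and 9.63 on the si-UQCRC2 arrays, with si-FAM210B lowest, si-UQCRC2 highest and no overlap. The difference was -0.60 ± 0.08 (SE, adjusted p = 0.00532) and held under every alternative run, whereas neither comparison with control was called (adjusted p = 0.105 and 0.107). CCPG1, a receptor for autophagy of the endoplasmic reticulum, gave -0.62 ± 0.10 (SE, adjusted p = 0.0126) for CCPG1/MIR628, lost without any 1 si-UQCRC2 array. PDCD4 inhibits translation initiation, and MIR4680/PDCD4 was at -0.62 ± 0.13 (SE, adjusted p = 0.0307), lost without any 1 of 5 arrays. MYLIP, a ubiquitin ligase that degrades the LDL receptor, was named in MIR4639/MYLIP at -0.45 ± 0.08 (SE, adjusted p = 0.0144), lost without si-UQCRC2 replicate 1 or 3. The higher rows were ATF5/MIR4751 at 0.43, IRAK1/MIR718 at 0.32 and MIR636/SRSF2 at 0.24 (adjusted p = 0.0428, 0.0487 and 0.0432). ATF5 is a stress-response transcription factor and IRAK1 a kinase of Toll-like receptor signalling. SRSF2 is a splicing factor, and its row fell in si-UQCRC2 against control, at -0.35 ± 0.06 (SE, adjusted p = 0.0152). The calls of these 3 rows were each lost without any 1 of 6 or 7 arrays.

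**Figure D4:**
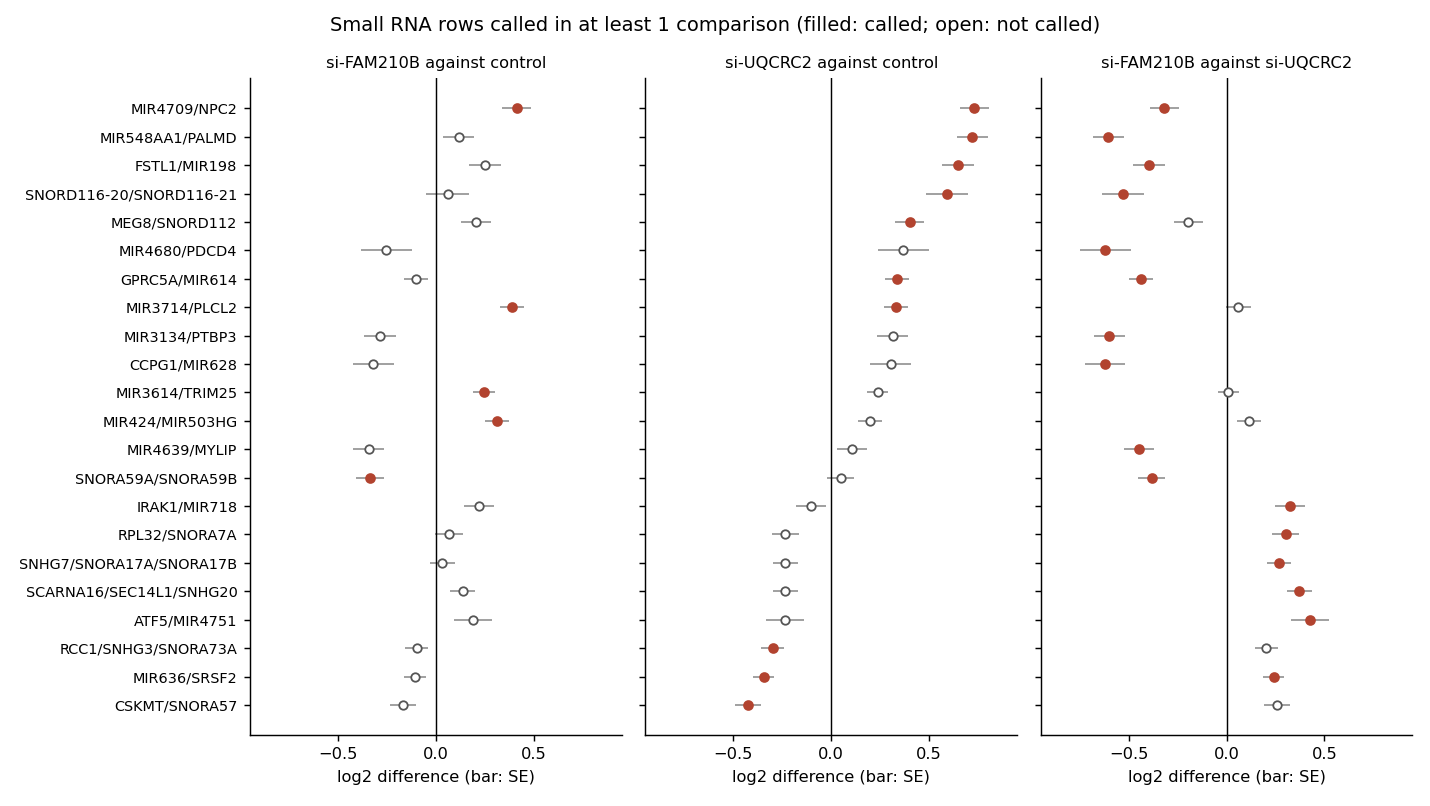
Log2 difference with its SE for the 22 sets of genes of small RNA rows called in at least 1 of the 3 comparisons, ordered by si-UQCRC2 against control, with filled points for called differences. MIR4709/NPC2 and MIR3714/PLCL2 are filled in both comparisons with control, and MIR3134/PTBP3 in the third comparison only.

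Rows with snoRNAs moved in both directions. CSKMT/SNORA57, with the methyltransferase of citrate synthase, was at -0.43 ± 0.07 (SE, adjusted p = 0.0132) in si-UQCRC2 against control and lay at 5.83, 5.76 and 5.74 on the control arrays, 5.64, 5.65 and 5.53 on the si-FAM210B arrays, and 5.27, 5.38 and 5.39 on the si-UQCRC2 arrays. The si-UQCRC2 arrays were below all others, and the row naming SNORA57 alone, at -0.13, was not called (adjusted p = 0.82). RCC1/SNHG3/SNORA73A, with the nucleotide exchange factor of the GTPase Ran, fell by 0.30 (adjusted p = 0.0377). MEG8/SNORD112, of an imprinted region of chromosome 14, rose by 0.40 and SNORD116-20/SNORD116-21, of the imprinted Prader-Willi region of chromosome 15, by 0.59 (adjusted p = 0.0319 and 0.0283). The SNORD116 row lay at 8.27, 8.08 and 8.09 on the control arrays, 7.96, 8.36 and 8.30 on the si-FAM210B arrays, and 8.66, 8.79 and 8.76 on the si-UQCRC2 arrays, with si-UQCRC2 above the rest and si-FAM210B overlapping control. SNORA59A/SNORA59B is given by 2 rows with equal values, at -0.34 ± 0.07 (SE, adjusted p = 0.0424) in si-FAM210B against control, a call lost without both deviating arrays. In the third comparison SCARNA16/SEC14L1/SNHG20, RPL32/SNORA7A and SNHG7/SNORA17A/SNORA17B were higher, at 0.37, 0.30 and 0.27 (adjusted p = 0.0153, 0.0436 and 0.0472). RPL32/SNORA7A was the only call among 26 rows with ribosomal protein symbols. All these snoRNA calls were lost without any 1 of 4 or more arrays. The 16 rows of 5S ribosomal RNA genes hold 1 profile, and so do the 7 rows of U1 spliceosomal RNA genes. Neither gave a call in any comparison. Rows that list a 5S pseudogene, most of them beside a longer gene as in NRF1/RNA5SP244, gave none either.

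In the 193 rows that update to 1 gene, 6 were called in si-FAM210B against control (3.11%), 4 in si-UQCRC2 against control (2.07%) and 5 in the third comparison (2.59%). All rows tested gave 2.56%, 1.72% and 4.49%. CASTOR2, a homologue of the arginine sensor CASTOR1 of the mTORC1 pathway, was listed with its old symbol GATSL1 and was lower in both comparisons with control. The row lay at 8.13, 8.27 and 8.29 on the control arrays, 7.47, 7.60 and 7.60 on the si-FAM210B arrays, and 7.58, 7.69 and 7.64 on the si-UQCRC2 arrays. Control lay above both targeting siRNA groups without overlap. The differences were -0.67 ± 0.07 (SE, adjusted p = 0.00189) and -0.59 ± 0.07 (SE, adjusted p = 0.00345), both held under every alternative run, and the difference between them, -0.08, was not called (adjusted p = 0.486). Another row that gives CASTOR2 alone fell by 0.56 and 0.51 (adjusted p = 0.00263 and 0.00374).

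ANKEF1 was at -0.69 ± 0.12 (SE, adjusted p = 0.0203) in si-FAM210B against control, with values of 7.33, 7.38 and 7.08 on the control arrays, 6.30, 6.76 and 6.65 on the si-FAM210B arrays, and 7.10, 7.12 and 7.12 on the si-UQCRC2 arrays. NPY4R, the receptor of pancreatic polypeptide, was at -0.59 ± 0.10 (SE, adjusted p = 0.0165) in si-UQCRC2 against control and SMIM13, a small membrane protein, at -0.40 ± 0.06 (SE, adjusted p = 0.00923). For NPY4R all si-UQCRC2 arrays, 8.70 to 8.73, lay below all control arrays, 9.22 to 9.40. PPP1R18, which binds actin filaments and protein phosphatase 1, has 7 rows, of which 1 was called, at 0.43 ± 0.07 (SE, adjusted p = 0.0135) and 0.35 ± 0.07 (SE, adjusted p = 0.0357), and the mean of the 7 rows gave 0.36 and 0.16 (adjusted p = 0.0545 and 0.59). The row of PPP1R18 alone gave 0.37 and 0.15 (adjusted p = 0.0489 and 0.622). LINC00862 was at 0.57, PALM2AKAP2 at 0.30 and NELFCD, a subunit of the negative elongation factor of RNA polymerase II, at -0.35 in si-FAM210B against control (adjusted p = 0.041, 0.0384 and 0.0445), and the rows of PALM2AKAP2 and NELFCD were chosen after their values were seen. SPANXB1, a cancer-testis gene with 2 rows of equal values, was at 0.65 in the third comparison and BMS1P1, a pseudogene, at -0.35 (adjusted p = 0.0496 and 0.0437). ANKEF1 lost its call without si-FAM210B replicate 3 or control replicate 1 or 2, the PPP1R18 row its si-FAM210B call without control replicate 2, and the other calls of this paragraph were lost without any 1 of 4 or more arrays.

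**Figure D5:**
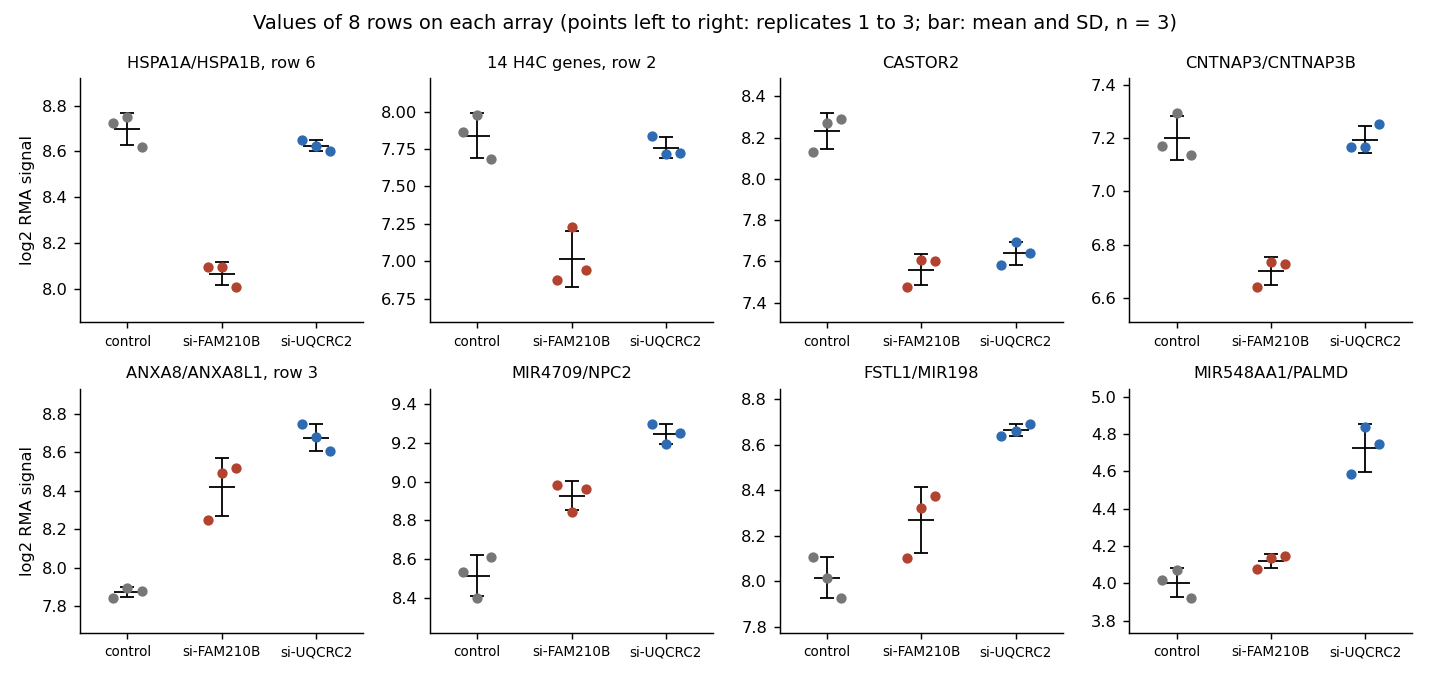
Log2 RMA signal of 8 rows on each array, with points for replicates 1 to 3 from left to right and bars for the mean and SD of 3 arrays, for control, si-FAM210B and si-UQCRC2. HSPA1A/HSPA1B row 6, H4 row 2 and CNTNAP3/CNTNAP3B are low on the si-FAM210B arrays alone, CASTOR2 is low and ANXA8/ANXA8L1 and MIR4709/NPC2 are high in both targeting siRNA groups, and FSTL1/MIR198 is highest on the si-UQCRC2 arrays. MIR548AA1/PALMD is a member only through the si-UQCRC2 arrays, so it had to be highest there.

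Of 89 overlapping rows, 1 was called in each comparison (1.12%, where 2.56%, 1.72% and 4.49% of all rows were). ZEB2/ZEB2-AS1, a repressor of epithelial genes and its antisense transcript on the opposite strand, was at 0.29 ± 0.06 (SE, adjusted p = 0.0466) in si-FAM210B against control, and the row of ZEB2-AS1 alone was below the level. This call was lost without any 1 array. CENPP/LOC100128361, with a centromere protein, was at -0.30 ± 0.06 (SE, adjusted p = 0.0322) in si-UQCRC2 against control. SHLD3/TRAPPC13 was at -0.51 ± 0.12 (SE, adjusted p = 0.0432) in the third comparison, and its si-FAM210B mean of 4.17 lay below the level. The calls of both rows were lost without any 1 of 7 and of 6 arrays.

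Of 80 rows of neighbours, 1 was called in each comparison with control (1.25%, against 2.56% and 1.72% of all rows) and none in the third (against 4.49%). TLR9/TWF2, which names a sensor of bacterial DNA and an actin-binding protein, was at 0.29 ± 0.06 (SE, adjusted p = 0.0376) in si-FAM210B against control. FBXO17/SARS2, with the mitochondrial seryl-tRNA synthetase, was at -0.34 ± 0.07 (SE, adjusted p = 0.0377) in si-UQCRC2 against control, and the row of SARS2 alone gave -0.25 (adjusted p = 0.0962). Both lost their calls without any 1 of 6 or 7 arrays.

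Among 72 readthrough rows none was called against control (0%), and 4 were lower in si-FAM210B against si-UQCRC2 (5.56% of the class, against 4.49% of all rows). GALNT4/POC1B/POC1B-GALNT4, which joins a centriole protein and a glycosyltransferase, lay at 6.80, 6.74 and 6.52 on the control arrays, 5.97, 6.40 and 6.35 on the si-FAM210B arrays, and 6.88, 6.90 and 6.86 on the si-UQCRC2 arrays. The si-FAM210B arrays were lowest, and the difference was -0.64 ± 0.12 (SE, adjusted p = 0.0184). PRH1-PRR4/PRR4, BIVM-ERCC5/ERCC5 and ASB3/GPR75-ASB3 were at -0.37, -0.36 and -0.28 (adjusted p = 0.0276, 0.0187 and 0.0342), and the last was chosen after its values were seen. ERCC5 encodes an endonuclease of nucleotide excision repair. The GALNT4 call was lost without any 1 si-UQCRC2 array, and the others without any 1 of 4 to 6 arrays. Of the 32 remaining rows, IGHV4-28/LOC642131, of the immunoglobulin heavy chain region, was at 0.44 ± 0.08 (SE, adjusted p = 0.0272) against control and 0.53 ± 0.08 (SE, adjusted p = 0.00886) against si-UQCRC2. COX10-DT/LOC100506974 was at 0.35 in the third comparison (adjusted p = 0.0261). The IGHV4-28 call was lost without any 1 of 6 arrays against control and without si-UQCRC2 replicate 1 in the third comparison, and the COX10-DT call without any 1 of 5 arrays.

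Rows that carry 1 of the listed symbols alone gave a second reading for some sets. The 59 sets of genes with a call hold 142 gene entries, of which 21 have such a row, and 22 of these 26 rows were at or above the level, in 16 sets. For sets called in si-FAM210B against control, 9 of 10 such rows were called themselves: 4 of HSPA1A, 1 each of CASTOR2, PPP1R18 and CNTNAP3, and the FAM72C row counted for both FAM72 sets. The exception was H4C3. The 4 HSPA1A rows are haplotype versions of 1 gene, and the FAM72C row is counted again, so the 9 are not separate readings. For sets called in si-UQCRC2 against control 1 of 6 was called, CASTOR2, and in the third comparison 6 of 16. Over all rows tested with 1 symbol, 3.07%, 2.34% and 5.53% were called in the 3 comparisons. Such rows can share probes or cross-hybridising RNA with the row of several symbols, and this was not tested.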

How the data were processed

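Total RNA of A549 cells was measured on a whole-transcript expression array. The submitters' processing notes name RMA as the authors' method for the deposited log2 values, and its version, the genome build and the annotation were not given in the sources used here. Symbols came from the platform annotation and were updated through RefSeq (GRCh38.p14): of 3367 symbol entries 2599 matched by Entrez identifier, 473 by symbol, 293 by synonym and 2 not at all. limma 3.58.1 (R 4.3.3) fitted group means to all 9 arrays (6 residual degrees of freedom), with eBayes at its defaults and Benjamini-Hochberg adjustment over the 33764 rows at or above the level in each comparison. The number of arrays limits the precision. The procedure was tested on simulated data with noise drawn independently for each row and array. That noise leaves out the correlated deviations of the real arrays. The members and lists were chosen with earlier results of these data known. Named rows are, per comparison, the 8 largest changes each way among called rows without overlap, up to 3 of each class with the smallest p, called rows of the listed families, and the rows beside the level. The 8 rows plotted by array were chosen after their values were seen. The paralog rule was to use protein identity too, which was not used here, and its name stems were widened (stems with a digit, histone classes, a final P or L) after the data were seen. Alternatives changed the filter, scaling, fit and arrays. Of the whole table, 0 columns were left unused.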

Additional observations from a re-analysis of the deposited data

Results flagged for a closer look

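Rows with several symbols below the level were outside the comparisons, and when all 67528 rows were fitted together, 1 of the 369 was called in si-FAM210B against control (0.271%, against 0.862% of all rows), none in si-UQCRC2 against control (against 0.659%) and 3 in si-FAM210B against si-UQCRC2 (0.813%, against 1.68%). The row called against control, which updates to DCDC1, rose by 0.3762 ± 0.0672 on the log2 scale (SE, limma, Benjamini-Hochberg adjusted p = 0.0321). It lay at 3.681, 3.768 and 3.656 on the si-FAM210B arrays, 3.371, 3.324 and 3.28 on the control arrays, and 3.253, 3.364 and 3.348 on the si-UQCRC2 arrays, so every si-FAM210B array was above every other. In si-FAM210B against si-UQCRC2 it was at 0.3798, GSAP at -0.4456 and DEFB103A/DEFB103B at 0.4394 (adjusted p = 0.024, 0.0112 and 0.0219). The DCDC1 row stands out because signal differed from control in a row that the comparisons did not use. At levels this low the signal may lie near background, which was not tested.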

How the results depend on the processing

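The counts of called rows in si-FAM210B against control, si-UQCRC2 against control and si-FAM210B against si-UQCRC2 (32, 22 and 51) were 22, 13 and 29 with no filter, 66, 37 and 116 over rows with a symbol only, and 8, 44 and 22 with only the groups compared in the fit. Without both deviating arrays they were 138, 81 and 142. Averaging rows of 1 set of genes, chosen after seeing the data, gave 17, 17 and 36. Array weights gave 614, 164 and 690, with weights that had stopped before convergence. Leaving out 1 array gave 12 to 39, 7 to 55 and 10 to 70. Fewer or more rows tested, or fewer arrays, differ by construction, and otherwise the cause was not tested. Quantile, cyclic loess, median centring, a stricter filter and trend with robust fitting kept each count within 1.5 times. Of 4701 single-row results under alternatives, 3868 kept direction and side of the threshold, 652 lost the call, 166 gained one and 15 changed sign, none of them called.

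Deviations from the group means of same-numbered si-FAM210B and control arrays correlated with r = -0.40, 0.40 and -0.27. Same-numbered pairs with si-UQCRC2 arrays gave r from -0.03 to 0.03. Such deviations sum to 0 within each group, so these values cannot tell whether same-numbered arrays were paired. With the replicate number as a block, 18, 7 and 14 rows were called.

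Changes of sign were these. GPRC5A/MIR614 in si-FAM210B against control became 0.0145 with cyclic loess, and SNORD116-20/SNORD116-21 ranged from -0.0172 to 0.1821 with 1 array left out. CNTNAP3/CNTNAP3B in si-UQCRC2 against control became 0.0, 0.0078 and 0.001 with quantile, cyclic loess and median centring, and ranged from -0.0362 to 0.0413 with 1 array left out. ZNG1C/ZNG1E/ZNG1F ranged from -0.0082 to 0.0648 with 1 array left out there and was -0.0082 without both deviating arrays. In si-FAM210B against si-UQCRC2, PPP1R18 became -0.0241 with array weights, MIR3614/TRIM25 -0.0291 with median centring and -0.001 to 0.0236 with 1 array left out, and MIR3714/PLCL2 -0.0148 with quantile and -0.0368 with cyclic loess.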
